A study of Homo sapiens with 2 samples.

Results

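The genes described here are 6 transcription factors of the mesenchymal transition, SNAI1, SNAI2, TWIST1, TWIST2, ZEB1 and ZEB2, and 4 genes of glioma matrix and cell motility, FN1, CD44, TNC and S100A4. They were taken by symbol from a deposited table of 58735 genes, and all 10 were found, each on 1 row. RNA came from SF-539 cells, a human glioblastoma (GBM) line whose label reads epithelial glioma cells of the brain. Both cell populations carried a lentivirus and were selected with puromycin, the shControl cells with pGIPZ-CTRL and the shFKBP9 cells with an FKBP9-shRNA. The labels speak of stable clones, without their number, and do not name the shRNA. There was 1 library per condition, so no difference below has a replicate check, and shFKBP9 cannot be told apart from any other difference between the libraries.

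In the mesenchymal transition, cells lose epithelial junctions and take on a migratory state. The SNAI and ZEB proteins are zinc finger repressors and the TWIST proteins are basic helix-loop-helix factors, and all of them bind E-boxes, the short DNA motif CANNTG, of which CACCTG is the form known from the CDH1 promoter. In GBM the same factors and a matrix rich in fibronectin and tenascin-C are known from the mesenchymal subtype and from invasive cells. In the paper, FKBP9 was studied for growth and invasion of GBM cells, and these genes address what the sequenced cells expressed of that programme.

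The deposited unit was FPKM, the fragments on a gene scaled by its length and by the size of the library, over all its exons, whose number in the canonical transcript ran from 2 for TWIST1 and TWIST2 to 46 for FN1. Whole fragments could be recovered from it, 18116873 on genes in shControl and 17158514 in shFKBP9. Differences are the log2 ratio of FPKM in shFKBP9 over shControl, with 0.1 added to both. Intervals at 95%, exact Poisson for a level and exact Clopper-Pearson for a ratio with nothing added, cover counting error only. FKBP9 itself, the target of the shRNA, fell from 49.8 FPKM in shControl to 4.68 in shFKBP9, a log2 ratio of -3.38 (95% interval -3.56 to -3.27). Of 15 glial markers, 3 reached 1 FPKM in either library. SLC1A3, a glutamate transporter of astrocytes, was at 8.60 and 9.14 FPKM, NES at 2.36 and 2.17 and PDGFRA at 1.46 and 0.976. Among those below it, OLIG2 had 48 and 41 fragments, GFAP 43 and 29 and SOX2 4 and 7, and 4 of the 15, OLIG1, AQP4 and NKX2-2 among them, had 0 in both libraries. Of the leukocyte markers, 5 of 6 were at 0 in both libraries.

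The 10 genes ran from 0.33 FPKM for SNAI1 to 305 for FN1 in shControl. In RNA of whole cultures, more cells of a type and more RNA per cell cannot be told apart. None of the 10 passed 2-fold, with log2 ratios from -0.35 for TWIST1 to 0.24 for TNC and a median of 0.05, against a median of -0.02 over all 17105 genes with at least 10 fragments in both libraries together. Where 1 FPKM or more was reached in one of the libraries, which holds for 12741 genes, 4.21% passed 2-fold, 2.02% higher and 2.19% lower in shFKBP9. Among protein-coding genes, as all 10 are, the share was 0.406%. Of the 6393 genes with at least 1000 fragments in both libraries together, 1 passed 2-fold higher and 4 lower, so 0 of 10 is near these shares. By a two-sided exact binomial test of the fragments, with Benjamini-Hochberg adjustment over all 17105 genes, 4 of the 10 were higher in shFKBP9 (TNC, CD44, ZEB2, SNAI2) and 2 were lower (TWIST1, S100A4). This test compares the libraries, not the conditions. It called 21.8% of all genes, 9.93% higher and 11.8% lower. Among the 6393 genes with at least 1000 fragments, to which 7 of the 10 belong, it called 42.1%, 18.9% higher and 23.2% lower. A negative binomial test that assumes a dispersion of 0.01 between libraries called 0 of the 10 and 0.345% of all genes, and at 0.04 it called 0 of the 10 and 0.0292%. At 0.01 the smallest unadjusted p-value among them was 0.0937, for TWIST1.

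**Figure D1:**
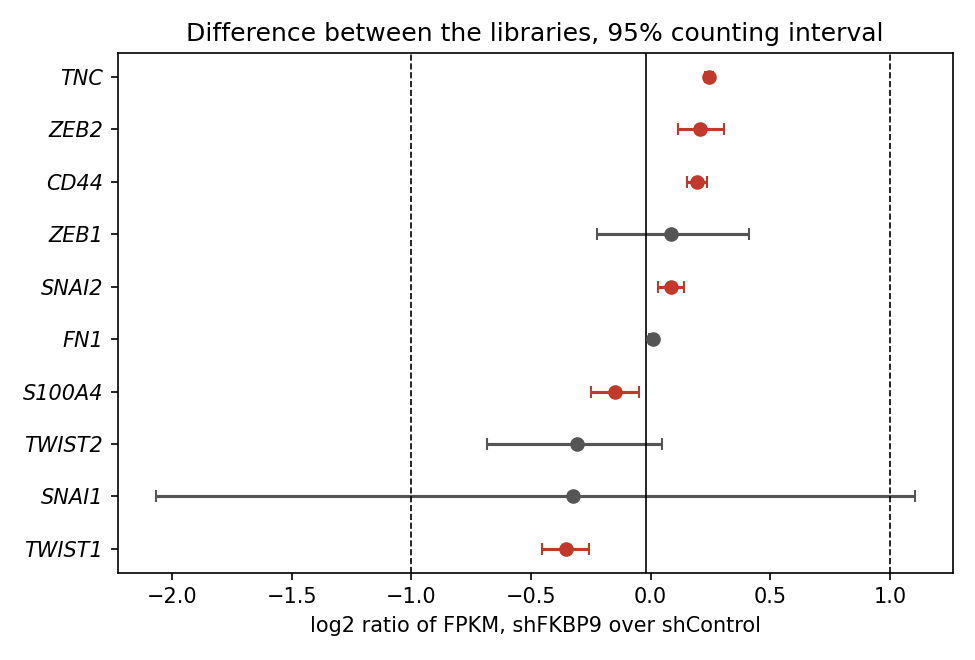
Log2 ratio of FPKM in shFKBP9 over shControl (x axis) for the 10 genes, with 95% Clopper-Pearson intervals of the fragments. Red points passed the exact binomial test of the libraries, dashed lines mark 2-fold and the solid line the median of all genes with at least 10 fragments. All 10 points lie between -0.35 and 0.24, inside the dashed lines, and the interval of SNAI1 runs from -2.07 to 1.10.

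The E-box was searched in the 250 bases before the start sites that RefSeq gives (build GRCh38.p14), because the 6 factors bind it and the matrix genes are read beside them. A promoter sequence was found for 7 of the 10 genes, FN1, TNC, CD44, S100A4, TWIST2, ZEB1 (7 start sites) and ZEB2. CANNTG, which reads the same on both strands and includes CACCTG and CAGGTG, was present in 61.8% of all 35116 promoters in the table, and CACCTG or its reverse complement CAGGTG in 17.5%. FN1, CD44 and TWIST2 held no CANNTG in this window. The windows below are those of S100A4, TNC and ZEB2, and those of ZEB1 with CACCTG or CAGGTG, with the E-box in capitals and the sequence on the strand of the gene.
S100A4, chr1:153545953-153545982, minus strand: cccacgggtgccCACCTGggaacaggaggc
TNC, chr9:115118326-115118355, minus strand: ataaattgtatgCAAATGggttccttccct
TNC, chr9:115118233-115118262, minus strand: cctttaattcgcCAACTGaaaaagtgggaa
ZEB1, chr10:31318348-31318377, plus strand: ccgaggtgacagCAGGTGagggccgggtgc
ZEB1, chr10:31318966-31318991, plus strand: ccccaccaCACCTGaggaaaactttt
ZEB1, chr10:31319119-31319148, plus strand: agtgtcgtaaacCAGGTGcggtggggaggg
ZEB2, chr2:144520282-144520311, minus strand: cgatcacgttttCACATGatgctcacgctc
The E-boxes begin 164 bases before the start site in S100A4, 186 and 93 in TNC and 180 in ZEB2. Such a match is a description of the letters, and no binding was measured in these data.

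The SNAI proteins, zinc finger repressors of CDH1, differed from each other far more in level than between the libraries. SNAI2 (ENSG00000019549, chromosome 8, 48917604 to 48921740 on hg38, minus strand) had an FPKM of 87.6 in shControl (95% interval 85.3 to 90.0) from 5379 fragments and of 92.9 in shFKBP9 (90.4 to 95.4) from 5408. It was the highest of the 6 factors in both libraries. Its log2 ratio was 0.08 (0.03 to 0.14, exact binomial test with adjusted p = 0.0147), and 28.2% of the genes with at least 1000 fragments had a ratio as high or higher. SNAI1 (ENSG00000124216, chromosome 20, 49982999 to 49988886, plus strand) had only 10 and 7 fragments in shControl and shFKBP9, an FPKM of 0.33 and 0.24, and was the only one of the 10 below 1 FPKM in both libraries. Its log2 ratio of -0.32 has an interval from -2.07 to 1.10, so a 2-fold difference in either direction was not detectable at this depth. The ratio also moved with the value added to FPKM, to -0.42 with 0.01 added, below the -0.35 of TWIST1 under the same setting. With 1 added to FPKM the ratio of SNAI1 was -0.10. Per length, SNAI2 stood 267 times above SNAI1 in shControl (145 to 558) and 384 times above it in shFKBP9 (186 to 956), and these intervals overlap. On the lengths of the canonical transcripts of GENCODE release 44, an alternative added after the data were seen, the ratios were 421 and 604. The pseudogene SNAI1P1 had 0 fragments in both libraries.

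The TWIST factors both had fewer fragments in shFKBP9. TWIST1 (ENSG00000122691, chromosome 7, 19020991 to 19117672, minus strand) had an FPKM of 53.6 in shControl (51.3 to 56.0) from 1974 fragments and of 41.9 in shFKBP9 (39.8 to 44.1) from 1464. The intervals of these levels do not overlap. Its log2 ratio was -0.35 (-0.45 to -0.26, exact binomial test with adjusted p = 3.78e-11), the lowest of the genes that passed, and 2.52% of the genes with at least 1000 fragments had a ratio as low or lower. ENSG00000232821 lies on the opposite strand, shares 141 exonic bases with TWIST1 in GENCODE release 44 and had 21 and 31 fragments, and with them added the log2 ratio of TWIST1 was -0.34. TWIST2 (ENSG00000233608, chromosome 2, 238848032 to 238910543, plus strand) had an FPKM of 4.32 in shControl (3.65 to 5.08) from 147 fragments and of 3.47 in shFKBP9 (2.86 to 4.18) from 112. Its log2 ratio of -0.31 was close to that of TWIST1, but its interval, -0.68 to 0.05, holds 0 and it did not pass the test (exact binomial, adjusted p = 0.226). TWIST1 stood 12.4 times above TWIST2 per length in shControl (10.5 to 14.8) and 12.1 times in shFKBP9 (9.96 to 14.8).

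The ZEB factors, repressors with a homeodomain between their zinc finger clusters, were low in both libraries. ZEB2 (ENSG00000169554, chromosome 2, 144364364 to 144524583, minus strand) had an FPKM of 3.70 in shControl (3.52 to 3.88) from 1677 fragments and of 4.28 in shFKBP9 (4.09 to 4.48) from 1842. Its log2 ratio was 0.21 (0.12 to 0.31, exact binomial test with adjusted p = 0.000166), and 10.9% of the genes with at least 1000 fragments had a ratio as high or higher. ZEB1 (ENSG00000148516, chromosome 10, 31318495 to 31529814, plus strand) had an FPKM of 1.07 (0.911 to 1.24) from 167 fragments and of 1.14 (0.973 to 1.32) from 169, a log2 ratio of 0.09 with an interval from -0.22 to 0.41. The antisense genes ZEB1-AS1, with 25 and 21 fragments, and ZEB2-AS1, with 3 and 5, overlap exons of their partners, and the kit named in the labels is not stated to mark strand, so such reads cannot be told apart. With the overlapping genes and pseudogenes added, the log2 ratio was 0.05 for ZEB1 and 0.21 for ZEB2.

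**Figure D2:**
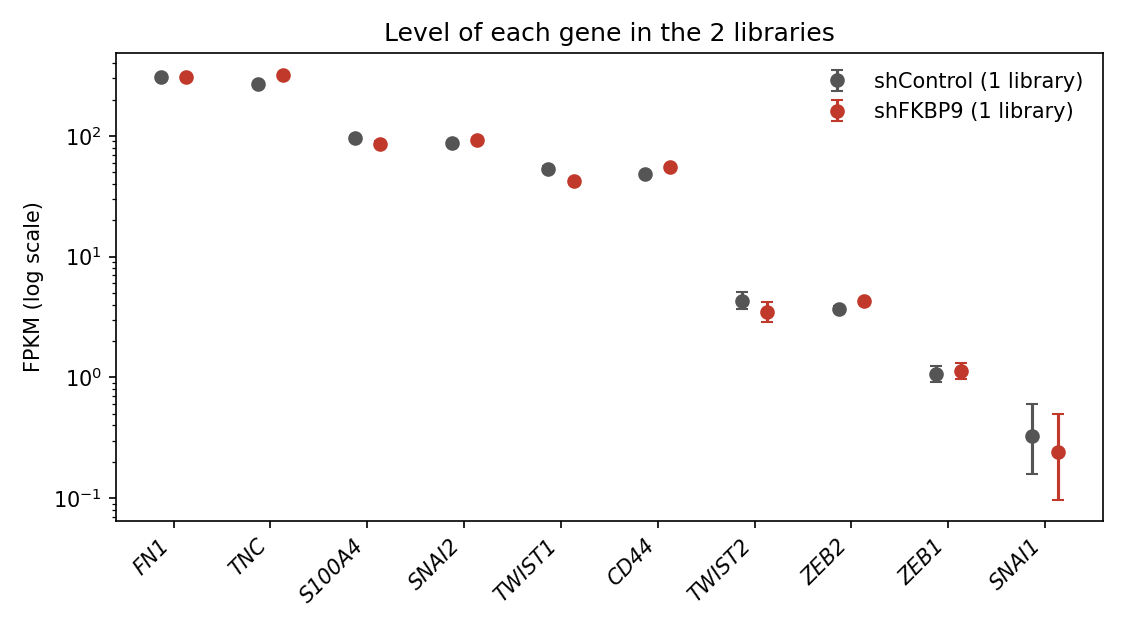
FPKM of each gene on a log scale (y axis) in the shControl library (grey) and the shFKBP9 library (red), with exact 95% Poisson intervals of the fragments, ordered by level in shControl. FN1 and TNC sit between 271 and 321 FPKM in both libraries, while TWIST2, ZEB2 and ZEB1 sit between 1 and 5 and SNAI1 below 1.

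The 4 matrix genes held 0.848% of all fragments in shControl and 0.906% in shFKBP9, against 0.0516% and 0.0525% for the 6 factors together. FN1 (ENSG00000115414, chromosome 2, 215360440 to 215436172, minus strand) encodes fibronectin, a glycoprotein that integrins assemble into fibrils. Its FPKM was 305 in shControl (303 to 307) from 95724 fragments and 307 in shFKBP9 (305 to 309) from 91293. The levels overlap, and the log2 ratio was 0.01 (-0.0047 to 0.021, exact binomial test with adjusted p = 0.427). Scaled by the median ratio of all expressed genes it was 0.03 and passed the exact binomial test (adjusted p = 0.00152), and as TPM it was -0.01, so its direction depends on the scaling.

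TNC (ENSG00000041982, chromosome 9, 115019578 to 115118257, minus strand) encodes tenascin-C, an anti-adhesive glycoprotein deposited in glioma matrix. It had an FPKM of 271 in shControl (269 to 274) from 47332 fragments and of 321 in shFKBP9 (319 to 324) from 53151. The levels do not overlap, and TNC had more fragments in shFKBP9 although that library was smaller. Its log2 ratio of 0.24 (0.23 to 0.26, exact binomial test with adjusted p = 5.18e-155) was the highest of the 10, and 8.04% of the genes with at least 1000 fragments had a ratio as high or higher. DELEC1, which overlaps it on the other strand, had 25 and 13 fragments.

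CD44 (ENSG00000026508, chromosome 11, 35138870 to 35232402, plus strand), the hyaluronan receptor, had an FPKM of 48.6 in shControl (47.6 to 49.6) from 8797 fragments and of 55.6 in shFKBP9 (54.5 to 56.7) from 9547. These levels do not overlap either, and the log2 ratio was 0.19 (0.15 to 0.24, exact binomial test with adjusted p = 4.72e-18), with 12.1% of the deep genes as high or higher. A value per gene does not separate the standard form of CD44 from its splice variants, nor the isoforms of FN1 and TNC. S100A4 (ENSG00000196154, chromosome 1, 153543613 to 153550136, minus strand), a small calcium-binding protein that acts on non-muscle myosin, had an FPKM of 95.7 in shControl (91.3 to 100.3) from 1777 fragments and of 86.4 in shFKBP9 (82.1 to 90.8) from 1520. Its log2 ratio was -0.15 (-0.25 to -0.05, exact binomial test with adjusted p = 0.0188), with 21.4% of the deep genes as low or lower. Its neighbour S100A3, whose annotated span it overlaps without a shared exonic base, had 854 and 826 fragments, and summed with it the log2 ratio was -0.09.

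In shControl the order of the levels was FN1, TNC, S100A4, SNAI2, TWIST1, CD44, TWIST2, ZEB2, ZEB1 and SNAI1, and in it only TWIST2 and ZEB2 overlapped with their neighbour. In shFKBP9 the neighbours changed places in 4 pairs: TNC came before FN1, SNAI2 before S100A4, CD44 before TWIST1 and ZEB2 before TWIST2, and the levels of the second and the last of these pairs overlapped, although the interval of their ratio did not hold 1 in shFKBP9 (S100A4 at 0.930 times SNAI2, 0.878 to 0.985, and ZEB2 at 1.23 times TWIST2, 1.02 to 1.51). FN1 stood at 1.13 times TNC in shControl (1.11 to 1.14) and at 0.956 times in shFKBP9 (0.946 to 0.966). SNAI2 stood at 1.63 times TWIST1 in shControl (1.55 to 1.72) and at 2.21 times in shFKBP9 (2.09 to 2.35), a ratio within each library that no library scaling can move. These places rest on the gene lengths in the file, which are 0.989 to 2.70 times the canonical transcript of GENCODE release 44. On canonical lengths SNAI2 stood at 2.04 and 2.76 times TWIST1, FN1 stood at 2.05 and 1.74 times TNC, TWIST1 at 0.748 and 0.511 times CD44, S100A4 at 1.40 and 1.19 times SNAI2 and ZEB2 at 1.65 and 2.38 times TWIST2 in shControl and shFKBP9, so that none of the 4 pairs changed places.

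Partners and targets of these genes, related genes and markers of cell types and of mesenchymal GBM were read from 16 lists of 195 genes. None of those with at least 1 FPKM in either library passed 2-fold. The counts of each list stand against 9.93% of all genes called higher and 11.8% lower, and against 18.9% and 23.2% at 1000 fragments or more. The 10 genes and the lists were chosen with earlier results of these data known. The shares are therefore a background to read beside the counts, and no test of a list. The list of the E proteins, partners of TWIST in its dimers, the ID proteins, which sequester them, and the related factors HAND1 and HAND2 had 5 of 8 tested genes lower by the test of the libraries, 0 higher and a median log2 ratio of -0.23. Of these 8 genes, 6 had at least 1000 fragments, a depth at which 23.2% of all genes were lower and 18.9% higher. All 4 ID genes were among the 5 lower genes. ID1 stood at 194 FPKM from 4329 fragments in shControl and at 113 from 2387 in shFKBP9, a log2 ratio of -0.78 (95% interval -0.85 to -0.71), ID4 was at -0.37, ID3 at -0.32 and ID2 at -0.23. TCF3 was at -0.22, while TCF4, TCF12 and HAND2 had log2 ratios of 0.03, 0.12 and 0.02 and did not pass, and HAND1 had 0 fragments in both libraries.

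Of the 18 corepressors, kinases and ubiquitin ligases that act with or on the SNAI and ZEB proteins, 1 was higher and 3 were lower, with a median of 0.02. The lower ones were CTBP1 at -0.24, a corepressor of ZEB, SIN3A at -0.20 and KDM1A at -0.17, a histone demethylase recruited by SNAI1, and the higher one was CTBP2 at 0.14. HDAC1, the highest of the list, had an FPKM of 37.2 and 37.1. Of the other factors of mesenchymal transition, 3 of 10 tested were higher and 2 lower, with a median of 0.08. PRRX1, a homeobox factor of mesenchyme, stood at 13.9 and 22.8 FPKM, a log2 ratio of 0.71 (0.63 to 0.79), and HMGA2, an architectural chromatin protein, was at 0.41. SOX9 was at -0.60 (-0.88 to -0.36) and FOXC2 at -0.41, and RUNX2, the highest at 14.8 FPKM in shControl, was at -0.08 and did not pass.

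The epithelial genes that these repressors act on were near 0. None of the 21 reached 1 FPKM in either library, and together they had 172 and 174 fragments. CDH1, which encodes E-cadherin, had 0 and 1 fragments in shControl and shFKBP9, and EPCAM had 11 and 14. CLDN7, the highest at 0.310 and 0.538 FPKM, had 14 and 23 fragments and did not pass, and CDS1 alone passed with 10 and 26.

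Among 17 mesenchymal genes, 11 of 14 tested were higher by the test of the libraries and 1 was lower, with a median log2 ratio of 0.17. Of these 14 genes, 13 had at least 1000 fragments, where 18.9% of all genes were higher and 23.2% lower. In this list 13 of the 17 genes reached 1 FPKM in either library. Below it were COL3A1 with 42 and 42 fragments in shControl and shFKBP9, POSTN with 0 and 6, THY1 with 3 and 1 and CDH11 with 0 and 2. TAGLN and ACTA2, proteins of contractile actin fibres, were at 0.63 and 0.56, SPARC was at 0.25 and TGFBI, the highest at 1136 and 1345 FPKM, at 0.24. The lower gene was MMP2, a gelatinase, at -0.06. VIM, which encodes vimentin, was at 0.09 (0.07 to 0.12) and CDH2, which encodes N-cadherin, at 0.22 (0.10 to 0.35). The paper reports less N-cadherin in FKBP9-depleted GBM cells by immunoblot, which measures protein, while the values here are RNA.

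Receptors and assembly partners of fibronectin had 5 of 13 genes higher, 1 lower and a median of 0.10, beside FN1 at 0.01. Of these 13 genes, 9 had at least 1000 fragments, where 18.9% of all genes were higher and 23.2% lower. THBS1, a glycoprotein that binds fibronectin and activates TGF-β, was the furthest at 2.64 and 5.17 FPKM, a log2 ratio of 0.95 (0.80 to 1.14), followed by the fibrillin gene FBN1 at 0.36 and ITGB1 at 0.28. SDC2 was lower, at -0.16. ITGA5, the α chain of the fibronectin receptor and the highest of the list at 151 and 148 FPKM, was at -0.03 and did not pass.

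Brain matrix other than tenascin-C was nearly absent: 7 of 15 genes, TNR and TNN among them, had 0 fragments in both libraries, and VCAN alone reached 1 FPKM. VCAN, which encodes the proteoglycan versican, stood at 15.2 and 12.6 FPKM, a log2 ratio of -0.27 (-0.34 to -0.20), beside 0.24 for TNC. It was the one gene of 4 tested that passed. Among the partners of CD44, 4 of 16 were higher and 2 lower, with a median of -0.00. Of these 16 genes, 11 had at least 1000 fragments, where 18.9% of all genes were higher and 23.2% lower. HAS2, a hyaluronan synthase, had 14 and 31 fragments and a log2 ratio of 0.90 (0.27 to 2.25) under 1 FPKM, and SPP1, the ligand osteopontin, was at 0.44. CEMIP, which degrades hyaluronan, was at -0.40, and MSN, moesin, which links CD44 to actin, at -0.33. MMP14, a protease that sheds CD44, was the highest at 260 and 295 FPKM and stood at 0.18.

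Of the other S100 genes, 1 of 10 tested was higher and 2 were lower, with a median of -0.03. S100A6 was the highest at 2339 and 2531 FPKM, with a log2 ratio of 0.11, and S100A2 and S100A16 were at -0.17 and -0.14, beside -0.15 for S100A4. Of 13 markers and factors of mesenchymal GBM, 3 of 12 tested were higher and 2 lower, with a median of 0.02. Of these 12 genes, 11 had at least 1000 fragments, where 18.9% of all genes were higher and 23.2% lower. CHI3L1, a secreted chitinase-like glycoprotein, stood at 9.89 and 19.3 FPKM, a log2 ratio of 0.96 (0.83 to 1.11), CEBPD was at 0.29 and TIMP1, the highest at 146 and 154 FPKM, at 0.08. FOSL2 and CEBPB were lower, at -0.30 and -0.16.

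Of 6 markers of fibroblasts and pericytes, 4 were higher and 1 was lower, with a median of 0.49, and 5 of them had at least 1000 fragments, where 18.9% of all genes were higher and 23.2% lower. Their summed level was 225 FPKM in shControl and 244 in shFKBP9, while their share of all fragments, most of it on COL6A3, was 0.362% and 0.347%. LUM stood at 0.95 (0.86 to 1.04), FAP at 0.85, DCN at 0.57, PDGFRB, also counted among the mesenchymal genes, at 0.14 and COL6A3, the highest at 169 and 154 FPKM, at -0.13. None of the 6 was at 0 in either library, but RGS5, with 15 and 21 fragments, was below 1 FPKM in both. The part of these 6 markers in the values of the 10 genes was not tested. PDGFRA alone passed among 7 tested glial genes, at -0.54. Endothelial markers had 355 and 304 fragments, leukocyte markers 13 and 24, all on CD14, neuron markers 461 and 510, mostly on SNAP25, and keratinocyte markers 15 and 50. Of these 4 groups, KRT14, with 1 and 24 fragments, alone passed the test of the libraries. Its log2 ratio was 2.52 (2.05 to 10.0), at 0.0242 FPKM in shControl and 0.613 in shFKBP9.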

How the data were processed

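Per the labels and the paper's methods, the authors removed reads with adapters, undetermined bases or low quality, aligned paired reads to hg38 with HISAT2 2.0.5 and counted them with featureCounts 1.5.0-p3. The annotation release is not given in the sources used here. The deposited values are FPKM of the authors for 1 library per condition, with 0 further value columns. FPKM times gene length was a whole multiple of 1 step (tolerance 0.1) for 100% of values. The library sizes it implies were 0.999 and 1.00 times the fragment sums, with a product of 1.

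The log2 ratio had 0.1 added to FPKM. Genes with at least 10 fragments entered a two-sided exact binomial test with Benjamini-Hochberg adjustment over all of them, at 0.05. It measures counting error, not spread between cultures. Where a symbol had 2 rows, the row with more fragments was used in the lists. Exons came from GENCODE release 44 (hg38), promoters from RefSeq. Members and lists were chosen with earlier results of these data known. Named were FKBP9, the 10 genes, their overlapping genes and pseudogenes, and per list the genes past 2-fold, the 4 largest log2 ratios past the test and the highest FPKM, of which 1 is not reported here. NES, OLIG2, GFAP, SOX2, OLIG1, AQP4, NKX2-2, TCF3, TCF4, TCF12, HAND1, HAND2, CDH1, EPCAM, MMP2, VIM, CDH2, COL3A1, POSTN, THY1, CDH11, RGS5, TNR and TNN were named after their values were seen. The calculations were tested on simulated data. Tests ran in scipy 1.17.1 under Python 3.11.15, on tables read by pandas 2.3.3 with numpy 2.4.6, and plots in matplotlib 3.10.9.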

Additional observations from a re-analysis of the deposited data

How the results depend on the processing

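None of the 10 genes passed 2-fold with 1 or 0.01 added to FPKM, with median scaling, as TPM, without a minimum, with at least 1 FPKM in both libraries or among protein-coding genes, while the share of all genes past 2-fold was 6.84%, 0.695% and 0.406% under the last 3 of these. The log2 ratio of FKBP9 was -3.16 with 1 added. The exact binomial test gave 5 higher and 2 lower with median scaling (21.5% of all genes called) and 4 and 2 with at least 50 fragments together (29.6% of 13066), whereas a negative binomial test that assumes a dispersion of 0.01 or 0.04 gave 0 higher and 0 lower, with 0 of the 10 at an unadjusted p under 0.05, against 855 and 239 of all 17105 genes. After adjustment it called 59 and 5 of these. So the calls rest on counting error as the sole source of spread, and the dispersion between cultures is unknown. The median of the 10 genes ran from 0.03 to 0.06, and the 6 genes called kept their direction under each scaling, each value added and the sums with overlapping genes. No paired analysis was possible because each condition has 1 library, and no replicate could be left out. Depth limits SNAI1 most, then TWIST2 and ZEB1.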
